A study of Mus musculus with 8 samples.

Results

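Msx1, Msx2, Msx3, Olig3, Gdf7, Gdf10, Bmp6, Bmp7, Rspo1 and Rspo3 were followed here as genes of the dorsal neural tube and roof plate. They were taken from the arrays by name: every non-control probe whose gene name in the deposited files equals one of these symbols. This gave 12 probes for the 10 genes, 2 each for Msx3 and Gdf7, and 9 of the 10 genes passed the filter on dim probes. The array held 36511 gene entries, which include probes and chromosome intervals without a gene symbol.

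The study measured RNA from mouse embryos of strain C57BL/6 at E10.5 (embryonic day) after conditional loss of Geminin, a small protein that holds back DNA replication licensing and also binds chromatin regulators. There were 4 groups of 2 arrays each: mutant neural tube (genotype labelled fl/fl; cre/o), wild-type neural tube, mutant paraxial tissue (the same mutant genotype) and wild-type paraxial tissue. Both tissues were cut from the same embryos with a laser, so the 8 arrays come from 2 mutant and 2 wild-type embryos. Which promoter drives cre, and which part of Gmnn is removed, is not in the labels. They give the wild types no cre or floxed allele, so loss of Geminin and presence of cre cannot be told apart. Values below are 1-colour array signals on a scaled log2 scale, and the first value of a group is always embryo 1.

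The roof plate is the strip of cells that closes the neural tube along its back. It secretes proteins of the BMP and Wnt families, which pattern the dorsal progenitors beneath it. BMP proteins bind paired receptor kinases that pass the signal to Smad proteins, and the Msx homeobox genes are among the genes that respond. R-spondins bind Lgr receptors and keep Wnt receptors at the cell surface. Several of these genes are also used outside the neural tube, in the limb, the kidney, the surface ectoderm and the mesenchyme.

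The sequences of 3 probes are shown because the Msx3 probe covers the homeobox and the Gdf7 probes, close to each other, gave different results. Each is given as printed on the array, on the minus strand of mouse build mm9. The Msx3 probe lies at chr7:147233824-147233883, and its capitals mark the stretch that encodes part of the recognition helix of the homeobox. The Gdf7 probes lie at chr12:8304754-8304813 and chr12:8304980-8305039, with starts 226 bases apart, and carry no capitals. All of them are 60 bases long with a GC content of 55.0%.
Msx3, brighter probe: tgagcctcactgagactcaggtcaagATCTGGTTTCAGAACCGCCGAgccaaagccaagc
Gdf7, dimmer probe: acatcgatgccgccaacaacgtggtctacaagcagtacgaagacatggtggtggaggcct
Gdf7, brighter probe: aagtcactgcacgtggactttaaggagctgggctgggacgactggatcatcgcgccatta

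Between 71.8% and 78.1% of spots were well above background on an array, with 73.7% and 74.2% in mutant neural tube against 77.7% and 78.1% in wild-type neural tube, and 71.8% and 73.3% in mutant paraxial tissue against 77.4% and 73.7% in wild-type paraxial tissue. Gmnn, which encodes Geminin, stood at 12.10 and 11.80 (log2 level) in mutant neural tube against 12.35 and 12.24 in wild-type neural tube, and at 11.42 and 11.39 in mutant paraxial tissue against 12.20 and 11.88 in wild-type paraxial tissue. Both differences missed the test (limma adjusted p = 0.921 and 0.996), and whether the probe, at chr13:24843715-24843774 (mm9, minus strand), lies in the deleted part was not given in the labels. Mutant embryo 2 stood apart from the other 3 embryos. Ddx3y, a Y-linked gene, was well above background on its 2 arrays (7.61 and 7.68) and on no other. Xist, which is expressed from the inactive X chromosome, stood at 7.25 on the neural tube array of mutant embryo 2. On the 6 arrays of the other embryos it stood between 13.95 and 14.77. By these genes the mutant group was mixed and the wild-type group was not, and the labels give no sex. The part of sex in the genotype differences was not tested. Of 10 neural progenitor markers, 10 passed as higher in neural tube when genotypes were averaged, against 5.94% of all genes. Of 12 sclerotome and mesenchyme markers, 11 passed as lower, against 6% of all genes, 1 of these kept by the filter through paraxial tissue alone. The averaged calls thus ran with both tissue labels. In wild type alone 0 of the 10 progenitor markers passed, with a positive difference for all 10, and in mutants 9 passed. Of the sclerotome and mesenchyme markers, 9 passed in each genotype. All 10 neural progenitor markers were nevertheless well above background on all 4 paraxial arrays.

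Of the 9 measured genes, 5 differed between neural tube and paraxial tissue. Averaged over genotypes, Msx1, Msx3 and Olig3 were higher in neural tube, and Bmp7 and Rspo3 were lower there (limma with the embryo as a random block, Benjamini-Hochberg adjusted p under 0.05). Over all 28940 genes tested, 11.9% passed this test, 5.94% higher and 6% lower, so that 49.8% of the calls were higher, against 39.4% with normexp background correction. The 9 genes had a median difference of 0.05 (log2), against -0.02 over all genes. In mutants alone, 2 of the 9 were higher in neural tube (Msx3 and Olig3) and 1 was lower (Bmp7), where 5.84% of all genes passed, 2.68% higher and 3.16% lower. In wild type alone, 0 of the 9 passed, where 2.46% of all genes did, 0.774% higher and 1.69% lower, and 17.9% had an unadjusted p under 0.05. The arrays of the tissues did not overlap for 7 of the 9 genes in mutants, against 36.2% of all genes, and for 6 of the 9 in wild type, against 35.2% of all genes.

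**Figure D1:**
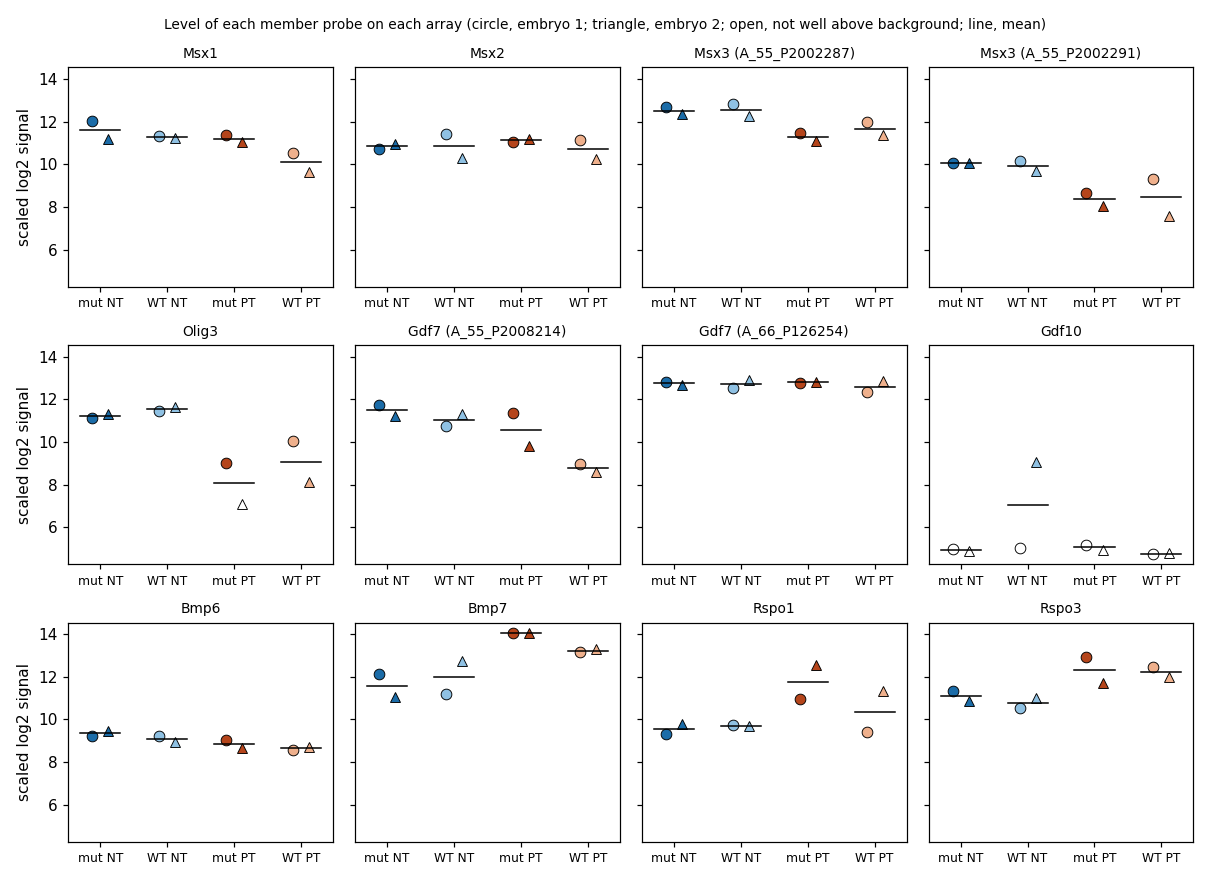
Scaled log2 level by each of the 12 probes on every array, by group (mut, mutant; WT, wild type; NT, neural tube; PT, paraxial tissue), with a point per embryo (open where not well above background) and a line at the mean of 2. A_55_P2008214 is the dimmer Gdf7 probe and A_55_P2002291 the dimmer Msx3 probe. Olig3 and Msx3 sit higher in neural tube, Bmp7 and Rspo3 sit higher in paraxial tissue, and Gdf10 rises above background on 1 wild-type neural tube array only.

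Among the transcription factors, Olig3 had the largest difference between tissues. Olig3 is a basic helix-loop-helix factor of the dorsal-most progenitor domains, next to the roof plate, and its probe lies at chr10:19078253-19078312 (mm9, plus strand). Its log2 level was 11.13 and 11.29 in mutant neural tube, 11.45 and 11.64 in wild-type neural tube, 9.02 and 7.11 in mutant paraxial tissue, and 10.03 and 8.11 in wild-type paraxial tissue. All 4 neural tube arrays lay above all 4 paraxial arrays, and the second mutant paraxial array was not well above background. The log2 difference, neural tube minus paraxial tissue, was 3.14 ± 0.62 in mutants (SE; limma adjusted p = 0.0357) and 2.48 ± 0.62 in wild type (limma adjusted p = 0.0974). Averaged over genotypes it was 2.81 ± 0.44 (limma adjusted p = 0.00927), a 7-fold higher signal in neural tube. With normexp background correction the differences were 1.94 in mutants and 2.02 averaged, and leaving out 1 array gave 2.15 to 4.14 in mutants and 2.29 to 3.33 averaged.

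The paraxial arrays themselves were far apart for Olig3. In both genotypes embryo 1 was higher than embryo 2, by more than the distance between the genotype means. The neural progenitor list, taken as its mean log2 deviation from the 8-array mean, had the same order on these arrays: -0.61 and -1.62 in mutant paraxial tissue, against -0.16 and -1.04 in wild-type paraxial tissue. On the neural tube arrays that list was at 0.85 and 0.91 in the mutants against 0.89 and 0.78 in wild type. Its part in the Olig3 result was not tested. In tissue pieces such as these, fewer cells of a type and less RNA per cell cannot be told apart.

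Msx3, the Msx gene that in the mouse is confined to the dorsal neural tube, was higher in neural tube by both of its probes. The brighter probe read 12.68 and 12.34 (log2 level) in mutant neural tube, 12.83 and 12.28 in wild-type neural tube, 11.47 and 11.10 in mutant paraxial tissue, and 11.98 and 11.36 in wild-type paraxial tissue. Every neural tube array was above every paraxial array. The log2 difference between tissues was 1.22 ± 0.19 in mutants (SE; limma adjusted p = 0.0177) and 0.89 ± 0.19 in wild type (limma adjusted p = 0.0619), and 1.06 ± 0.13 averaged over genotypes (limma adjusted p = 0.00472). The dimmer probe, at chr7:147232855-147232915 (mm9, minus strand), read 10.08 and 10.08 in mutant neural tube, 10.18 and 9.71 in wild-type neural tube, 8.68 and 8.07 in mutant paraxial tissue, and 9.32 and 7.57 in wild-type paraxial tissue. Tested on its own in a fit of 42754 probes, in which 12% of probes passed, its averaged difference was 1.60 ± 0.27 (limma adjusted p = 0.0117). The paraxial level of Msx3 also ran with the neural progenitor list, in the same order over the 4 arrays by the brighter probe and highest on wild-type array 1 by both. The part of that list in the result was not tested.

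Msx1 and Msx2 encode homeobox repressors that respond to BMP signals in the roof plate, the surface ectoderm and the limb. Msx1 (chr5:38212305-38212364, mm9, minus strand) had log2 levels of 12.04 and 11.19 in mutant neural tube, 11.31 and 11.21 in wild-type neural tube, 11.35 and 11.02 in mutant paraxial tissue, and 10.53 and 9.65 in wild-type paraxial tissue. The tissues overlapped in mutants and stood apart in wild type. The log2 difference between tissues was 0.43 ± 0.26 in mutants (SE; limma adjusted p = 0.447), 1.17 ± 0.26 in wild type (limma adjusted p = 0.0746) and 0.80 ± 0.19 averaged over genotypes (limma adjusted p = 0.0369). Msx2 (chr13:53562318-53562377, mm9, minus strand) had log2 levels of 10.72 and 10.97 in mutant neural tube, 11.43 and 10.29 in wild-type neural tube, 11.04 and 11.20 in mutant paraxial tissue, and 11.15 and 10.26 in wild-type paraxial tissue. Its groups lay within the spread of the wild-type arrays, and its averaged log2 difference between tissues was -0.06 ± 0.17 (limma adjusted p = 0.860). Of the Msx genes, Msx1 and Msx3 thus passed the averaged test and Msx2 did not, and a difference between them was not tested.

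The BMP family ligands did not share a tissue pattern. Bmp7, which is made in the roof plate, the surface ectoderm and the kidney, was lower in neural tube. Its log2 level (probe at chr2:172695203-172695262, mm9, minus strand) was 12.11 and 11.05 in mutant neural tube, 11.19 and 12.75 in wild-type neural tube, 14.04 and 14.07 in mutant paraxial tissue, and 13.16 and 13.28 in wild-type paraxial tissue. The paraxial arrays were all above the neural tube arrays and close together within a genotype, while the neural tube arrays of a genotype were over 1 apart. The log2 difference, neural tube minus paraxial tissue, was -2.48 ± 0.41 in mutants (SE; limma adjusted p = 0.0223), -1.25 ± 0.41 in wild type (limma adjusted p = 0.179) and -1.87 ± 0.29 averaged over genotypes (limma adjusted p = 0.00927).

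Markers of other cell types were read beside Bmp7. As mean log2 deviations, 11 surface ectoderm markers were at 0.27 and -0.18 in mutant neural tube, -0.68 and -0.59 in wild-type neural tube, 1.25 and 0.65 in mutant paraxial tissue, and -0.57 and -0.15 in wild-type paraxial tissue. The 5 measured of 8 limb and lateral mesoderm markers were at -0.18 and -1.39, at -2.06 and -0.81, at 1.62 and 2.07, and at -0.44 and 1.19 in the same order of groups. Of these 5, in that order, 3 and 1, 1 and 3, 5 and 5, and 3 and 5 were well above background. The low values of the limb list thus include dim signals. The surface ectoderm and limb lists were both highest on the mutant paraxial arrays, where Bmp7 was highest too. So were 8 endothelial markers (0.73 and 0.75 there, against 0.01 and 0.26 in wild-type paraxial tissue) and 7 erythroid markers (0.69 and 0.71, against -0.09 and -0.10). The 12 sclerotome and mesenchyme markers, at -1.42 and -0.85, -2.29 and -0.51, 1.18 and 1.08, and 1.26 and 1.54 in that order, were as high in wild-type as in mutant paraxial tissue. The part of these markers in the Bmp7 result was not tested.

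Bmp6, a roof plate ligand of the same subgroup as Bmp7, differed little between the tissues. Its log2 level (chr13:38591479-38591538, mm9, plus strand) was 9.24 and 9.45 in mutant neural tube, 9.22 and 8.94 in wild-type neural tube, 9.05 and 8.65 in mutant paraxial tissue, and 8.58 and 8.73 in wild-type paraxial tissue. Neural tube lay above paraxial tissue in each genotype, and the averaged log2 difference of 0.46 ± 0.14 missed the threshold (SE; limma adjusted p = 0.0822). With normexp background correction the wild-type difference turned to -0.041, against 0.42 without it.

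Gdf7, the ligand made by the roof plate itself and the gene most often used to mark it, gave a different answer with each of its probes. The brighter probe read 12.81 and 12.68 (log2 level) in mutant neural tube, 12.55 and 12.90 in wild-type neural tube, 12.77 and 12.80 in mutant paraxial tissue, and 12.34 and 12.84 in wild-type paraxial tissue. It was flat across all groups, with an averaged log2 difference between tissues of 0.05 ± 0.11 (SE; limma adjusted p = 0.835). The dimmer probe read 11.73 and 11.24 in mutant neural tube, 10.74 and 11.32 in wild-type neural tube, 11.35 and 9.80 in mutant paraxial tissue, and 8.98 and 8.61 in wild-type paraxial tissue. Wild-type paraxial tissue stood lowest by this probe, and mutant paraxial tissue overlapped the neural tube arrays. Tested on its own among all probes, the dimmer probe had a log2 difference between tissues of 0.90 ± 0.36 in mutants (limma adjusted p = 0.228, where 5.55% of probes passed), 2.23 ± 0.36 in wild type (limma adjusted p = 0.0341, where 2.31% passed) and 1.57 ± 0.26 averaged (limma adjusted p = 0.0113). The rule of the brightest probe per gene made the flat probe stand for Gdf7 in all counts of genes, and which of the probes follows the transcript was not tested.

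**Figure D2:**
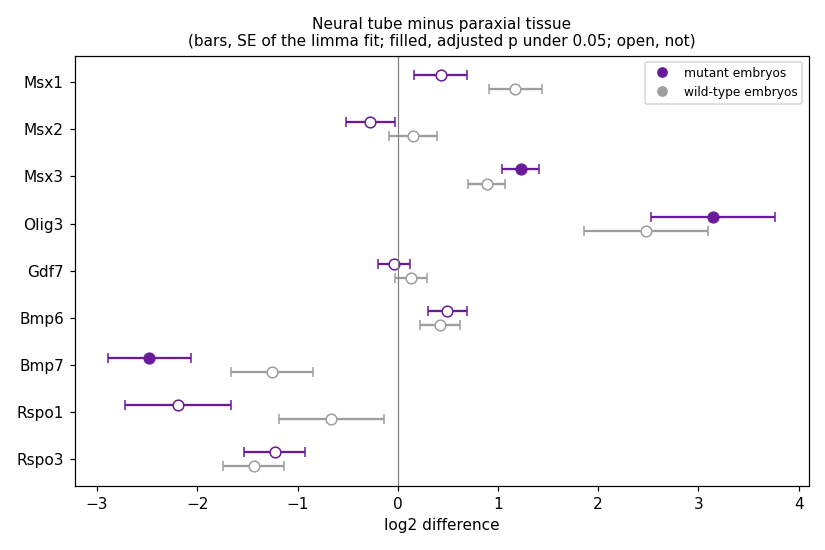
Log2 difference, neural tube minus paraxial tissue, of each gene in mutants and in wild type, by its brightest kept probe, with bars of 1 SE from the limma fit and filled points for an adjusted p under 0.05. Olig3 and Msx3 lie right of 0, Bmp7, Rspo1 and Rspo3 lie left of it, and Gdf7 by its flat probe lies near 0.

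Gdf10, a ligand of the BMP family known from the dorsal neural tube, was not well above background on 7 of the 8 arrays and failed the filter. Its log2 level (chr14:34748161-34748220, mm9, plus strand) was 4.96 and 4.86 in mutant neural tube, 5.02 and 9.07 in wild-type neural tube, 5.18 and 4.96 in mutant paraxial tissue, and 4.73 and 4.78 in wild-type paraxial tissue. The value of 9.07, on wild-type neural tube array 2, was the only one well above background, and no test was run.

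Both R-spondins leaned to the paraxial side. Rspo3, a roof plate R-spondin that is also made in mesenchyme, had log2 levels (chr10:29172930-29172989, mm9, minus strand) of 11.32 and 10.88 in mutant neural tube, 10.54 and 11.03 in wild-type neural tube, 12.93 and 11.73 in mutant paraxial tissue, and 12.44 and 12.01 in wild-type paraxial tissue. All paraxial arrays lay above all neural tube arrays, and the log2 difference was -1.23 ± 0.31 in mutants (SE; limma adjusted p = 0.0683), -1.44 ± 0.31 in wild type (limma adjusted p = 0.0645) and -1.33 ± 0.22 averaged (limma adjusted p = 0.0104). Rspo1, which is known from the roof plate and from the developing gonad and kidney region, had log2 levels (chr4:124686270-124686329, mm9, plus strand) of 9.33 and 9.78 in mutant neural tube, 9.72 and 9.70 in wild-type neural tube, 10.94 and 12.56 in mutant paraxial tissue, and 9.40 and 11.34 in wild-type paraxial tissue. Its neural tube values were close together and its paraxial values ran over 3 log2 units, with embryo 2 above embryo 1 in both genotypes. The averaged log2 difference of -1.43 ± 0.37 was just outside the threshold (limma adjusted p = 0.0530). It passed in 8 of 23 alternatives: with median scaling, normexp, probes well above background on every array, trend and robust moderation, or the replicate number as a block (limma adjusted p between 0.0186 and 0.0489), and without wild-type neural tube array 1 (0.0261), wild-type paraxial array 1 (0.00686) or wild-type embryo 1 (0.0412).

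The spread of Rspo1 over the paraxial arrays was shared by 2 of the 5 measured markers of the intermediate mesoderm, the tissue beside the somites that forms kidney and gonad. As a list, these 5 markers had mean log2 deviations of 0.27 and 0.96 in mutant paraxial tissue against 0.25 and 0.39 in wild-type paraxial tissue, and of -0.90 and -0.04 in mutant neural tube against -0.14 and -0.79 in wild-type neural tube. Wt1, a kidney and gonad factor of that list that was picked out after its values were seen, had log2 levels of 10.82 and 13.70 in mutant paraxial tissue against 10.39 and 13.01 in wild-type paraxial tissue. Osr1, chosen in the same way, stood at 10.63 and 12.05 in mutant against 9.54 and 11.31 in wild-type paraxial tissue. Embryo 2 was above embryo 1 in each genotype for both genes, as for Rspo1. The other 3 measured markers did not share this order. Pax2 and Lhx1, which are also expressed in spinal interneurons, were higher in embryo 1: Pax2 at 12.85 and 11.59 in mutant against 13.44 and 11.75 in wild-type paraxial tissue, and Lhx1 at 13.12 and 12.55 against 14.50 and 12.80. Gata3 stood at 8.89 and 9.87 in mutant against 8.33 and 8.05 in wild-type paraxial tissue. The part of these markers in the Rspo1 values was not tested.

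**Figure D3:**
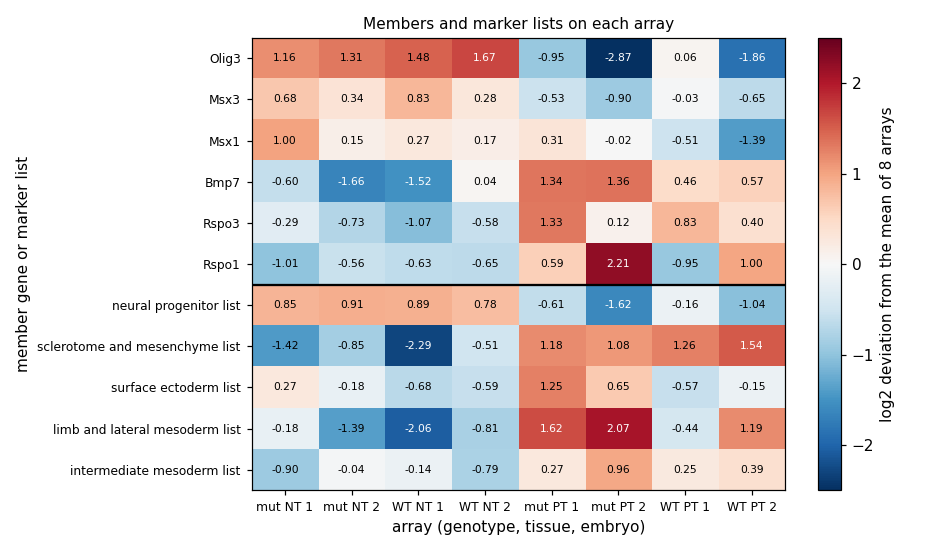
Deviation of 6 of the genes, and of the mean of each marker list drawn, from its own mean over the 8 arrays (log2, by colour and number). Each column is an array (mut for mutant, WT for wild type, NT for neural tube, PT for paraxial tissue). The lists drawn are neural progenitor, sclerotome and mesenchyme, surface ectoderm, limb and lateral mesoderm, and intermediate mesoderm. Olig3 and Msx3 follow the neural progenitor list across the paraxial arrays. Bmp7 is highest on the mutant paraxial arrays, where the surface ectoderm and limb lists also peak. The endothelial and erythroid lists, which are not drawn, peak there too.

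These calls rested on few arrays. Without any 1 of the 4 mutant arrays the calls within mutants were lost: the limma adjusted p then lay between 0.115 and 0.181 for Msx3, 0.0567 and 0.275 for Olig3, and 0.0800 and 0.190 for Bmp7. Olig3 also lost its mutant call without either wild-type embryo (limma adjusted p = 0.0552). Averaged over genotypes, Msx3 kept its call without any single array and lost it without mutant embryo 2 (limma adjusted p = 0.0606). Olig3 lost the averaged call without mutant neural tube array 2 (limma adjusted p = 0.0543), without mutant embryo 2 (0.0771) and without wild-type embryo 2 (0.0818). Bmp7 lost it without neural tube array 2 (0.0504) or paraxial array 2 (0.0536) of the mutants, and without mutant embryo 2 (0.0924). Rspo3 lost it without either mutant neural tube array (0.0554 for each), without mutant embryo 1 (0.0615), and without wild-type embryo 1 (0.0726) or 2 (0.0533). Msx1 kept its averaged call without the neural tube or the paraxial array of wild-type embryo 1 only, and otherwise had a limma adjusted p between 0.0541 and 0.219. With no block for the embryo, 0 of the 9 genes passed in mutants or on average (averaged adjusted p by limma 0.0564 for Olig3 and 0.0783 for Msx3). With the embryo as a fixed term the mutant calls of Msx3, Olig3 and Bmp7 were lost (limma adjusted p = 0.0524, 0.112 and 0.0814). In wild type, the 0 genes called became 4 with normexp background correction (Msx1, Msx3, Olig3 and Rspo3). Over all genes the wild-type calls then rose from 713 to 1508. In all 184 alternative values of the called differences the direction stayed the same.

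In neural tube, no difference between mutants and wild type passed the test for any of the 9 genes. No gene of the 28940 tested passed the test there (0% called; 1050 genes, or 3.63%, had an unadjusted p under 0.05 in limma), and all adjusted p-values over the 9 genes lay between 0.928 and 0.998. Olig3 was lower in mutants without overlap (11.13 and 11.29 against 11.45 and 11.64 in wild type), with a log2 difference of -0.34 ± 0.99 (SE). Bmp6 was higher in mutants without overlap (9.24 and 9.45 against 9.22 and 8.94 in wild type), with a log2 difference of 0.27 ± 0.31. The arrays failed to overlap for these 2 of the 9 genes, against 31.9% of all genes. The log2 difference was 0.36 ± 0.42 for Msx1, -0.01 ± 0.38 for Msx2, -0.04 ± 0.30 for Msx3, 0.02 ± 0.26 for Gdf7, -0.39 ± 0.66 for Bmp7, -0.15 ± 0.84 for Rspo1 and 0.32 ± 0.49 for Rspo3. Every one was within its standard error. The fit takes a single spread per gene from all groups, so these SEs also hold the spread of the paraxial arrays. For Olig3 the SD was 0.11 in mutant and 0.13 in wild-type neural tube, against 1.35 and 1.36 in paraxial tissue. The dimmer Gdf7 probe differed by 0.45 ± 0.57 and the dimmer Msx3 probe by 0.14 ± 0.59. Within the rows of the slide, 2 of the 9 genes kept their sign in neural tube, Olig3 (-0.33 and -0.36) and Bmp6 (0.015 and 0.52). The share of all genes that kept their sign was not taken, so this count is a description only.

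In paraxial tissue the differences were larger except for Bmp6 and Rspo3, and none passed the test (0% of 28940 genes called; 971 genes, or 3.36%, had an unadjusted p under 0.05 in limma). Msx1 was higher in mutants, at 11.35 and 11.02 against 10.53 and 9.65 in wild type, a log2 difference of 1.10 ± 0.42 (SE; unadjusted p = 0.0348, limma adjusted p = 0.996). Bmp7 was higher as well, at 14.04 and 14.07 in the mutants against 13.16 and 13.28 in wild type, a log2 difference of 0.84 ± 0.66 (limma adjusted p = 0.996). The arrays did not overlap for these 2 of the 9 genes, against 37.3% of all genes. The SE of Bmp7 also holds the spread of its neural tube arrays. Its SD was 0.019 in mutant and 0.083 in wild-type paraxial tissue, against 0.75 and 1.11 in neural tube. Rspo1 differed by 1.38 ± 0.84 and Olig3 by -1.01 ± 0.99, with overlapping arrays. Replicate 1 lay in the first row of the slide and replicate 2 in the second, and within these rows Rspo1 differed by 1.54 and 1.22, Olig3 by -1.01 and -1.005, Msx1 by 0.83 and 1.37, Bmp7 by 0.88 and 0.79, and Msx3 by -0.51 and -0.25. The other 4 genes changed sign between the rows. Here too the share of all genes that kept their sign was not taken, so these values are a description only. With the replicate number as a block, 0 of 28940 genes passed in paraxial tissue (1413 had an unadjusted p under 0.05; limma adjusted p = 0.906 for both Rspo1 and Olig3). The log2 difference was 0.41 ± 0.38 for Msx2, -0.38 ± 0.30 for Msx3, 0.20 ± 0.26 for Gdf7, 0.19 ± 0.31 for Bmp6 and 0.11 ± 0.49 for Rspo3. By the dimmer Gdf7 probe mutants were higher, at 11.35 and 9.80 against 8.98 and 8.61 in wild type. Its log2 difference of 1.78 ± 0.57 missed the threshold in the fit of all probes (limma unadjusted p = 0.0173, limma adjusted p = 0.994). In that fit 0% of probes passed. Several marker lists of other cell types leaned in a single direction on the same arrays, with 0 calls in any list. The difference was positive for all 11 surface ectoderm markers (median log2 difference 1.25), all 5 limb markers (1.29), all 7 erythroid markers (0.78) and all 8 endothelial markers (0.57). It was negative for 9 of 10 muscle markers (-1.43), 7 of 10 differentiated neuron markers (-0.997) and 10 of 10 neural progenitor markers (-0.35). Only 3 of the 5 limb markers were well above background on wild-type paraxial array 1, against 5 on each mutant paraxial array. The rest could not pass the filter through wild-type paraxial tissue, which favoured a positive difference for them. The other lists were mixed, with a positive difference for 6 of 12 sclerotome and mesenchyme markers (median -0.11) and 5 of 8 neural crest markers (0.28). It was positive for 3 of 5 intermediate mesoderm markers (0.56), and for 53.4% of all genes. The part of these markers in the values of the 9 genes was not tested.

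**Figure D4:**
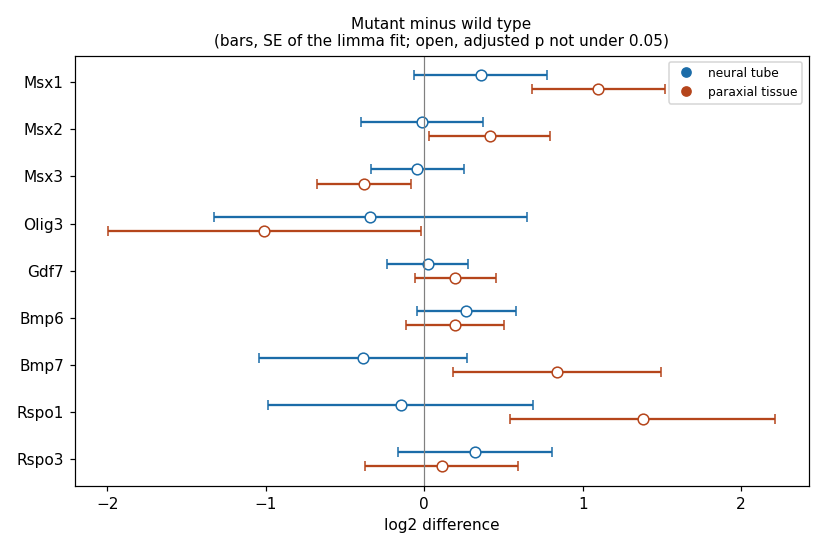
Log2 difference, mutant minus wild type, of each gene in neural tube and in paraxial tissue, by its brightest kept probe, with bars of 1 SE from the limma fit and open points, since no gene passed the test. Rspo1 (1.38) and Msx1 (1.10) have the largest positive differences, both in paraxial tissue.

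The genotype difference was then compared between tissues as an interaction, neural tube minus paraxial tissue, and no gene passed (0% of 28940; 1495 genes, or 5.17%, had an unadjusted p under 0.05 in limma). The log2 interaction was -0.74 ± 0.37 for Msx1 (SE; unadjusted p = 0.0879), -1.22 ± 0.58 for Bmp7 (unadjusted p = 0.0747) and -1.53 ± 0.74 for Rspo1 (unadjusted p = 0.0797). Adjusted p-values by limma over the 9 genes lay between 0.957 and 0.996. The dimmer Gdf7 probe, in the fit of all probes, had an interaction of -1.33 ± 0.51 (limma unadjusted p = 0.0365, limma adjusted p = 0.955). In that fit 0% of probes passed. With 2 embryos per genotype these limma p-values rest on the spread between few animals, and a missed threshold does not show that mutants and wild type were alike.

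Other genes of the roof plate and of its signals were read from lists, beside the same background of 11.9% of genes called in the averaged tissue comparison. Of 14 measured roof plate genes outside the 10, 5 were higher and 2 lower in neural tube, with a median log2 difference of 0.42. Wnt1, a roof plate Wnt ligand, was among the higher ones (0.82 ± 0.11, SE; limma adjusted p = 0.00619). Wnt3a and Wnt3, further roof plate Wnts, were not well above background on any paraxial array. They passed the filter through neural tube alone, which fixed their direction, so their values are a description: in mutants Wnt3a was at least 1.46-fold and Wnt3 at least 1.19-fold higher in neural tube, and in wild type at least 1.34-fold and 1.97-fold. Wnt3a was well above background on 2 mutant and 1 wild-type neural tube arrays, and Wnt3 on 1 mutant and 2 wild-type ones. Without them 3 genes were higher. The 2 lower genes were the ligands Bmp4 (-0.98 ± 0.21; limma adjusted p = 0.0266) and Bmp5. Bmp5 passed the filter through paraxial tissue alone and was well above background on 1 neural tube array of each genotype, the second, at 7.89 in mutants and 7.71 in wild type, against 9.50 and 9.50 in mutant paraxial tissue and 9.81 and 9.96 in wild-type paraxial tissue. Lmx1b, a LIM homeobox factor of the roof plate and of the limb, was lower in neural tube in mutants (-1.45; limma adjusted p = 0.0387), at 12.98 and 12.92 in mutant neural tube against 13.84 and 14.97 in mutant paraxial tissue.

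The dorsal progenitor and interneuron factors lay mostly on the neural tube side. Averaged over genotypes, 6 of 14 measured genes were higher and 0 lower, with a median log2 difference of 0.62. The proneural factors Neurog2 (2.04 ± 0.28, SE; limma adjusted p = 0.00630) and Neurog1 (1.76 ± 0.32; limma adjusted p = 0.0162) were among them. In mutants alone 3 were higher and 1 lower, the lower one being Lhx2 (-2.18), a LIM homeobox factor of dorsal interneurons that is also used in the limb. The ventral genes served as the other end of the same axis: of 14 measured, 12 were higher in neural tube and 0 lower, with a median of 2.15, and 9 of the 12 had passed the filter through paraxial tissue too. Foxa2 (3.90 ± 0.31), Nkx2-2 (2.60 ± 0.15) and Shh (2.32 ± 0.13), which mark the floor plate and its neighbouring progenitors, passed there, with adjusted p-values by limma of 0.00180, 0.00138 and 0.00138. In wild-type paraxial tissue, Foxa2 passed the background limit on 1 of 2 arrays.

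**Figure D5:**
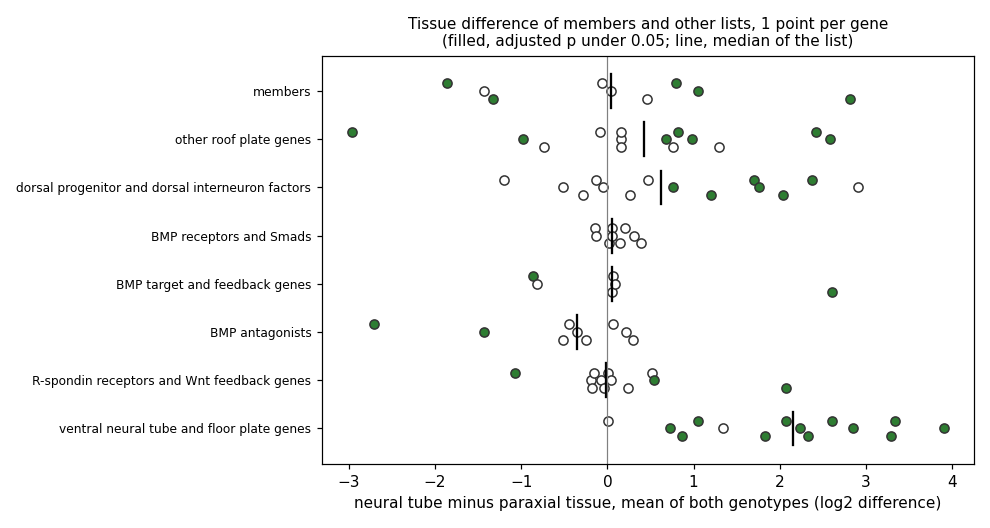
Averaged log2 difference, neural tube minus paraxial tissue, of the 9 measured dorsal genes (top row, members) and of every measured gene in each pathway list, with a point per gene, filled where the adjusted p was under 0.05, and a line at the list's median. The ventral list lies furthest to the neural tube side (median 2.15), and the dorsal roof plate genes spread over both sides.

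The BMP and Wnt pathway genes moved in small numbers. Of 9 measured BMP receptors and Smads, 0 passed in either direction (median 0.06). Of 6 measured BMP target and feedback genes, Id4, an inhibitor of helix-loop-helix factors, was higher in neural tube (2.60 ± 0.37, SE; limma adjusted p = 0.00675) and Atoh8 was lower (-0.86 ± 0.21; limma adjusted p = 0.0401). Of 9 BMP antagonists, 2 were lower in neural tube, Nbl1 (-1.43 ± 0.16; limma adjusted p = 0.00392) and Grem1. Grem1 passed the filter through paraxial tissue alone and was well above background on the second neural tube array of each genotype only, at 7.61 in mutants and 7.18 in wild type, against 10.53 and 9.71 in mutant paraxial tissue and 7.23 and 9.27 in wild-type paraxial tissue. Of 12 R-spondin receptors and Wnt feedback genes, Lgr5, an R-spondin receptor, and Axin2, a feedback inhibitor induced by Wnt signals, were higher, and Lef1, a nuclear partner of β-catenin, was lower. The averaged log2 difference was 0.54 ± 0.10 for Axin2 (limma adjusted p = 0.0181) and -1.08 ± 0.12 for Lef1 (limma adjusted p = 0.00392). Lgr5 was not well above background on any paraxial array and passed the filter through wild-type neural tube alone, where it was at least 1.88-fold higher, so its direction was fixed by the filter.

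Between genotypes, 0 genes of these 7 lists passed in either tissue or in the interaction. The smallest unadjusted p-values in neural tube belonged to Bmpr1b, a BMP receptor kinase, at 10.07 and 10.56 (log2 level) in mutants against 11.78 and 11.31 in wild type, a log2 difference of -1.22 ± 0.28 (SE; unadjusted p = 0.00333, limma adjusted p = 0.921), and to Lef1, at 13.35 and 13.20 in the mutants against 12.01 and 12.39 in wild type, a log2 difference of 1.07 ± 0.28. Pax7, a dorsal progenitor factor, had log2 levels of 9.76 and 10.22 in mutant neural tube against 11.08 and 11.09 in wild-type neural tube, and its log2 difference was -1.09 there and -1.64 in paraxial tissue. The median log2 difference of the dorsal progenitor list was -1.01 in neural tube and -0.55 in paraxial tissue, against -0.01 and 0.03 over all genes. Of its 14 measured genes, 4 were positive and 10 negative in neural tube, from -2.63 to 0.21, where 49.2% of all genes were positive. In paraxial tissue 3 were positive and 11 negative, from -1.64 to 2.16. As mean log2 deviations the list was at -0.64 and 0.60 in mutant neural tube against 1.14 and 0.52 in wild-type neural tube, and at -0.51 and -0.62 in mutant paraxial tissue against 0.41 and -0.89 in wild-type paraxial tissue. The genotypes overlapped in both tissues. In paraxial tissue Fst, a secreted antagonist of activins and BMPs, was at 14.44 and 12.80 in the mutants against 10.69 and 11.85 in wild type, a log2 difference of 2.35 ± 0.58 (unadjusted p = 0.00508, limma adjusted p = 0.996). The BMP responders Id1 and Id2 each differed by 0.96 there without passing. Of the 6 measured BMP target and feedback genes, 5 had a positive difference there and 1 a negative one. These ran from -1.51 to 0.96, with a median log2 difference of 0.69. Of the 9 BMP antagonists, 6 had a positive difference there and 3 a negative one (median 0.20). Over all genes the difference was positive for 53.4%, with a median of 0.03.

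The genes most alike in pattern were sought over the 8 arrays among 14921 genes whose level ranged over at least 1 log2 unit. Pearson correlations here describe 8 arrays that share embryos and fall into 2 tissues. Olig3 was most like Tox3, an HMG-box factor (r = 0.996), and then like probes of unnamed chromosome 1 intervals (r = 0.996 and 0.994). Msx3, by its brighter probe, was most like Gm6753 (r = 0.992), LOC100046627 (r = 0.991) and Numbl (r = 0.984). The flat Gdf7 probe was most like the unnamed probe A_55_P2086393 (r = 0.969), Fgfrl1 (r = 0.965) and Plaa (r = 0.950). The mean of the 9 genes was most like Cgref1 (r = 0.952), Tmem160 (r = 0.949) and the unnamed probe A_55_P2043454 (r = 0.942).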

How the data were processed

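RNA of laser-captured tissue was isolated with the PicoPure kit and labelled with Cy5 by the Kreatech ULS kit, per the labels' protocols. Each deposited file holds red-channel processed intensity values for a single array, extracted with Agilent Feature Extraction 11.0.1.1 on a design annotated on mm9, per the file headers (the submitters' processing notes give the same version). An alternative used the deposited value table of the whole series, whose intensities are within 0.497% of these. A single slide and scan held all 8 arrays, replicate 1 in its first row and replicate 2 in its second.

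Of 62976 spots per array, 3671 control spots and those marked as outliers were left out, and no spot was saturated. Each array was scaled to its 75th percentile on the log2 scale. A probe was kept (42754 of 55681) if both arrays of some group showed it well above background, and the brightest one stood for each of 28940 genes. Probes were named through RefSeq tables (26045 by accession, 3200 by symbol, 26419 as in the files). Counts and shares over all genes therefore include entries named only as a probe or a chromosome interval. Without an mm9 annotation, probes are given no exon.

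Models were fitted with limma 3.58.1 in R 4.3.3 (files read with the data.table package, version 1.17.8): 4 group means, a random block for the embryo by duplicateCorrelation (consensus 0.603), eBayes with 4 residual and 2.93 prior degrees of freedom, and Benjamini-Hochberg adjustment over all genes at 0.05. Each gene had a single estimate of spread, shared by the 4 groups, so an SE within a tissue also reflects the other tissue. The labels name the shared embryo, and the deviations of its tissues from the group means correlated across genes (0.607 in mutants and 0.562 in wild type). "At least" folds compare the brighter group's mean with a floor: on each array the lowest signal counted as well above background, or the dim probe itself if higher. On simulated data with noise of a chosen size, the fit was tested for the averaged tissue difference only. It was not tested there for differences between genotypes or for the interaction. The number of arrays limits the precision throughout.

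The named genes are the 10 genes, Gmnn, and up to 3 genes of each list with the smallest p in a comparison. Bmp4, Bmp5, Pax7, Ddx3y, Xist and the intermediate mesoderm markers were named outside that rule or after their values were seen. The 10 genes and the lists were chosen with earlier results of these data known. The alternatives were other scaling, background correction, filters, probe rules, moderation and blocks, and leaving out arrays or embryos.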

Additional observations from a re-analysis of the deposited data

How the results depend on the processing

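Of 1230 alternative values of the 9 genes' differences, 1161 kept their direction and 69 did not, and in 184 of 184 the called tissue differences kept theirs. Each genotype had 2 embryos, which bounds the precision, and Gdf10 and Olig3 (in mutant paraxial tissue) were not well above background on some arrays. Averaged over genotypes the genes called were 3457, and 2297 with no filter on dim probes, 595 with no replicate block for the embryo and 1974 with the embryo as a fixed block. In mutants they were 1689, and 610 with no filter, 0 with no block, 211 with the fixed block and 1026 with the replicate number as a block. In wild type they were 713, and 1508 with normexp, 362 with no filter, 1089 with trend and robust moderation, 4 with no block, 51 with the fixed block and 414 with the number as a block. Of the 9 genes, the mutant count of 3 became 5 with normexp (1849 over all genes) or with trend and robust moderation (1993). It became 0 with no filter, no block or the fixed block. The wild-type count of 0 became 2 with median scaling (976 over all genes) and 4 with normexp (1508). It became 3 with probes well above background on every array (917), 1 with the mean of probes (898) and 3 with trend and robust moderation (1089). The averaged count of 5 became 6 with median scaling (3719 over all genes), normexp (4165) or the mean of probes (3895). It was also 6 with trend and robust moderation (3698) or the number as a block (2601). With no filter or the fixed block it became 4, and with no block 0. The cause was not tested.

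Leaving out 1 array or embryo gave 0 to 0 genes between genotypes in neural tube, 0 to 17 in paraxial tissue, 0 to 32 for the interaction, 0 to 3201 in mutants, 31 to 2683 in wild type and 794 to 6480 on average between tissues. Of the 9 genes it gave 0 to 5 in mutants, 0 to 3 in wild type and 1 to 6 on average. Where 1 array of a group was left, it was assumed to vary like the other groups, and fits without an embryo used the correlation of 0.603. Deviations of same-numbered mutant and wild-type embryos from their group means correlated across genes at 0.291 in neural tube and 0.291 in paraxial tissue. Deviations from a mean of 2 arrays mirror each other, so both embryo numbers give the same value. With 2 pairs and no shared litter or day in the labels, numbers were not taken to pair them, and the number as a block called 0 genes between genotypes.

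The direction reversed in the following log2 differences, none of them called as reported. Mutant minus wild type in neural tube became 0.0090 for Msx2 and -0.039 for Gdf7 (quantile), 0.074 for Msx2 and 0.045 for Msx3 (median scaling), 0.047 for Msx3 (mean of probes) and 0.14 for Msx3 (other probe). With normexp the interaction of Olig3 became -0.15, the wild-type tissue difference -0.042 for Gdf7 and -0.041 for Bmp6, and the averaged one 0.040 for Msx2 and -0.097 for Gdf7. In mutants the tissue difference of Gdf7 became 0.43 (mean of probes) and 0.90 (other probe, an alternative chosen after seeing the data). Leaving out arrays or embryos, mutant minus wild type in neural tube ranged from -0.068 to 0.78 for Msx1, -0.58 to 0.55 for Msx2, -0.32 to 0.23 for Msx3, -1.16 to 0.48 for Olig3, -0.16 to 0.20 for Gdf7, -1.17 to 0.39 for Bmp7, -0.89 to 0.59 for Rspo1 and -0.087 to 0.72 for Rspo3. In paraxial tissue it ranged from -0.033 to 0.86 for Msx2, -2.04 to 0.026 for Olig3, -0.058 to 0.45 for Gdf7, -0.063 to 0.45 for Bmp6 and -0.50 to 0.71 for Rspo3. The interaction ranged from -0.39 to 1.72 for Olig3, -0.24 to 0.38 for Bmp6 and -0.28 to 0.70 for Rspo3. The tissue difference ranged from -0.12 to 0.041 for Gdf7 in mutants, from -0.081 to 0.39 for Msx2 and -1.64 to 0.32 for Rspo1 in wild type, and from -0.18 to 0.056 for Msx2 and -0.0077 to 0.10 for Gdf7 on average.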
